A study of Mus musculus with 2 samples.

Results

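The mitosis genes described here are 43 genes whose products act in the G2 and M phases of the cell cycle. They were taken by name from a list that was chosen with earlier results of these data known. All 43 were found among the 23154 genes of the count tables. The 87 cells came from the yolk sac of E10.0 mouse embryos and were sorted as PK44, that is, endothelial cells positive for CD31, CD201, Kit and CD44 and negative for CD41, CD43 and CD45. The study asked of this tissue whether such cells resemble hemogenic endothelial cells of the aorta-gonad-mesonephros region. There were 43 of them in replicate 1 and 44 in replicate 2. The mice were kept on a C57BL/6 background, and the labels name neither a treatment nor a second condition. How many embryos went into each library was not given in the sources used here, and the cells had been picked by eye for good condition, so the shares below are shares of picked cells.

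Hemogenic endothelial cells line embryonic vessels and give rise to blood cells. Cells that divide switch on a block of genes late in the cycle, among them the cyclins that activate *Cdk1*, the kinases of the spindle checkpoint, the motors that move chromosomes and the condensins that compact them, and most of these transcripts are lost again after division. Their promoters often carry a cell cycle genes homology region (CHR), at which the MuvB complex with its partners holds them down early and activates them late in the cycle, and CCAAT boxes, at which NF-Y binds.

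Counts were UMI counts of transcripts tagged at their 3′ end, so levels are given as CPM, that is, scaled to the total of all counts of a library or of a group of its cells, with no scaling for gene length. Cells of replicate 1 held between 13218 and 702028 counts, and those of replicate 2 between 51620 and 956593. The libraries shared 0 cell barcodes. Because depth differed so widely, each cell was thinned at random to 20000 counts wherever cells were compared, which left out 1 cell of replicate 1. With at least 100 counts of each of the mesenchymal genes *Col1a1*, *Col1a2*, *Col3a1* and *Lum*, 3 cells stood apart, 2 in replicate 1 and 1 in replicate 2. They were kept, and values without them are given where they differ.

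Just under 1% of the counts came from mitosis genes. The 43 members held 0.825% of all counts in replicate 1 and 0.874% in replicate 2. A thinned cell had a count of 5 to 34 members in replicate 1, with a median of 18.5, and of 7 to 41 members in replicate 2, with a median of 23. The number increased without a clear break between low and high cells. The module was called on in a cell with at least 22 of the 43 members, a plain majority. By this measure 16 of 42 cells of replicate 1 were on (38.1%, exact 95% interval 23.6 to 54.4%). Replicate 2 had 23 on cells of 44 (52.3%, 36.7 to 67.5%), which makes 39 of 86 together (45.3%, 34.6 to 56.5%). The intervals of the libraries overlap. They cover counting error only.

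Many cells lay close to the limit. In replicate 1, 9 cells had 20 to 23 members, and in replicate 2, 3 cells did. The ends of the range differed in their make-up. In replicate 1, 11 cells had at most 10 members and 1 cell had 33 or more, whereas in replicate 2 these were 8 and 11 cells. Members made up 0.025 to 1.81% of the thinned counts of a cell in replicate 1 and 0.075 to 1.95% in replicate 2. By the medians, on cells held 1.13% and off cells 0.358% in replicate 1, and 1.16% and 0.18% in replicate 2. These differences follow from how the cells were divided and are a description. No cell lacked the members altogether. With all counts used, a cell had 7 to 42 members in replicate 1 and 16 to 43 in replicate 2.

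On cells had also been sequenced more deeply. Before thinning, the median depth was 292757 counts in on cells and 90600 in off cells of replicate 1, and 273264 and 207486 in replicate 2. Across cells, Spearman's rho of depth with the share of all counts taken by members was 0.32 in both libraries (43 and 44 cells). The part of depth in these differences was not tested.

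**Figure D1:**
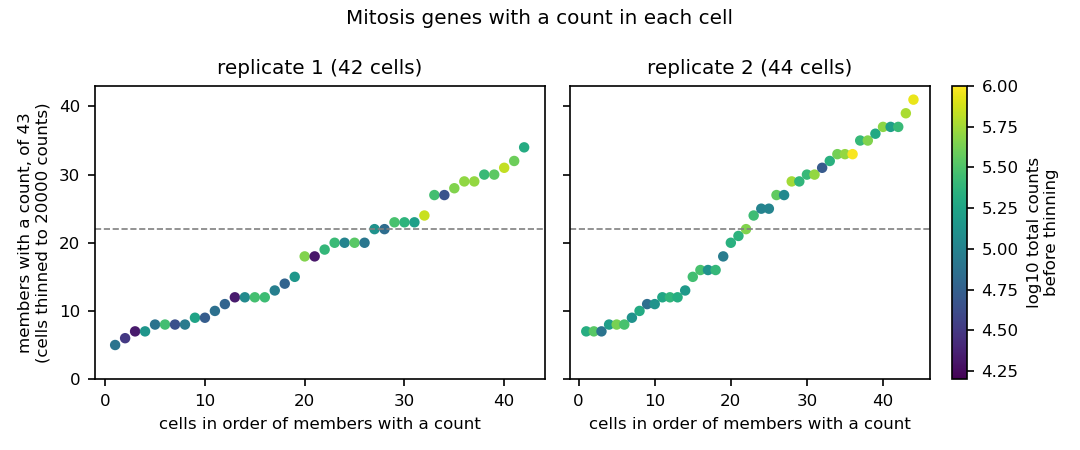
Number of the 43 mitosis genes with at least 1 count in each thinned cell (y axis), with the cells of each library in increasing order (x axis). The dashed line marks the 22 members from which the module was called on, and colour gives the log10 of the depth before thinning. The points climb from 5 to 34 in replicate 1 and from 7 to 41 in replicate 2 without a gap at the line.

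The 10 members with the highest mean level were *Hmgb2*, *Top2a*, *Smc4*, *Mki67*, *Smc2*, *Cdk1*, *Ube2c*, *Cks1b*, *Birc5* and *Cks2*, and 5 of them act on chromosome structure or chromatin. *Hmgb2*, which codes for a DNA-bending chromatin protein (chromosome 8, 57511907 to 57515999 on GRCm38), reached 1052 CPM in replicate 1 and 983 in replicate 2. *Top2a*, the topoisomerase that untangles sister chromatids (chromosome 11, 98992943 to 99024189), was at 818 and 643 CPM. *Mki67*, which encodes the Ki-67 antigen that coats mitotic chromosomes (chromosome 7, 135689784 to 135716361), was at 564 and 359 CPM. The condensin ATPases *Smc4* and *Smc2* were at 629.9 and 399.7 CPM and at 471 and 337 CPM. These 4 genes of chromosome structure were all higher in replicate 1, whereas the fifth, the condensin subunit *Ncapd2*, was at 78.8 and 116 CPM. *Hmgb2* was also the most widespread member, with a count in 40 of 42 and 40 of 44 thinned cells. It was present in 24 of the 26 off cells of replicate 1 and in 17 of the 21 off cells of replicate 2. The histone chaperone gene *Anp32e*, the other chromatin member, had a count in 14 off cells of each library.

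The cyclin group held the kinase of mitotic entry and its partners. *Cdk1* (chromosome 10, 69335146 to 69352938) reached 329 CPM in replicate 1 and 398 in replicate 2. The Cdk-binding subunits *Cks1b* and *Cks2* were at 283 and 419 CPM and at 223 and 304 CPM. Of the cyclins, *Ccnb1* was at 144 and 251 CPM and *Ccna2* at 131 and 111 CPM. *Ccnb2* showed the greatest ratio between the libraries of any member, at 71.4 CPM in the first and 295 CPM in the second (4.13-fold). Counts of *Ccnb1* and *Ccnb2* occurred together in 9 of 42 and 22 of 44 thinned cells.

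The kinases were lower. Their mean levels over the libraries ran from 43.8 CPM for the checkpoint kinase *Ttk* to 111 CPM for *Aurkb*, the kinase of the chromosomal passenger complex. *Aurka*, which acts at spindle poles, was at 95.8 and 109.6 CPM, and *Plk1* at 54.6 and 131 CPM. The checkpoint genes *Bub1* and *Bub1b* were at 74.6 and 84.3 CPM and at 71.1 and 104 CPM. *Aurka* had a count in 15 of 23 on cells and 0 of 21 off cells of replicate 2, which allows up to 14.3% of cells with a count, but in 6 of 16 and 5 of 26 of replicate 1. *Plk1* had one in 6 of 16 on and 1 of 26 off cells of replicate 1 and in 18 of 23 and 4 of 21 of replicate 2. The anaphase-promoting complex was represented by its activator *Cdc20*, at 83.2 and 193 CPM, and its E2 enzyme *Ube2c*, at 249 and 474 CPM. Both were higher in replicate 2.

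Of the 6 kinetochore and passenger genes, *Birc5* (survivin) was the highest, at 317 and 340.3 CPM. It was followed by *Cenpf* (285 and 229.6 CPM), the kinetochore motor *Cenpe* (226 and 200.3 CPM) and the centromeric histone gene *Cenpa* (111 and 236 CPM). The outer kinetochore genes *Ndc80* and *Nuf2*, whose products bind each other, were at 82.3 and 92.2 CPM and at 47.8 and 44.5 CPM. The 14 genes of motors and spindle were the most varied group. The spindle assembly factor *Tpx2* led them with 242 and 229 CPM, and the kinesin *Kif20a* was the lowest of all members with 10.6 and 12.1 CPM. The kinesins *Kif11*, *Kif20b*, *Kif23*, *Kif2c* and *Kif4* had mean levels of 52.4 to 157 CPM. The spindle-associated genes *Nusap1*, *Ckap2*, *Ckap2l*, *Hmmr*, *Tacc3*, *Dlgap5* and *Gtse1* had mean levels of 34.3 to 151 CPM. *Dlgap5* had the lowest ratio of replicate 2 to replicate 1, with 68.5 and 28.3 CPM. The cytokinesis genes *Anln* and *Ect2* were at 130.2 and 97.2 CPM and at 22.7 and 32.3 CPM.

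In all, 26 members were higher in replicate 2 and 17 in replicate 1, and the ratio passed 1.5 in 11 members and was under its inverse in 4. The Spearman correlation across the 43 members of the CPM in both libraries was 0.85. Genes are not independent replicates. The median member had a count in 38.1% of thinned cells in replicate 1 and 47.7% in replicate 2, and 36 members were more widespread in replicate 2. With 1 library on each side, no test of these differences was made. Exons of 11 members overlapped those of another gene, on the opposite strand for 9 of them (*Ccna2*, *Cdc20*, *Ckap2l*, *Kif20a*, *Kif4*, *Nusap1*, *Plk1*, *Tacc3* and *Ube2c*) and on the same strand for *Ncapd2* and *Top2a*. Their counts are uncertain to that extent.

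**Figure D2:**
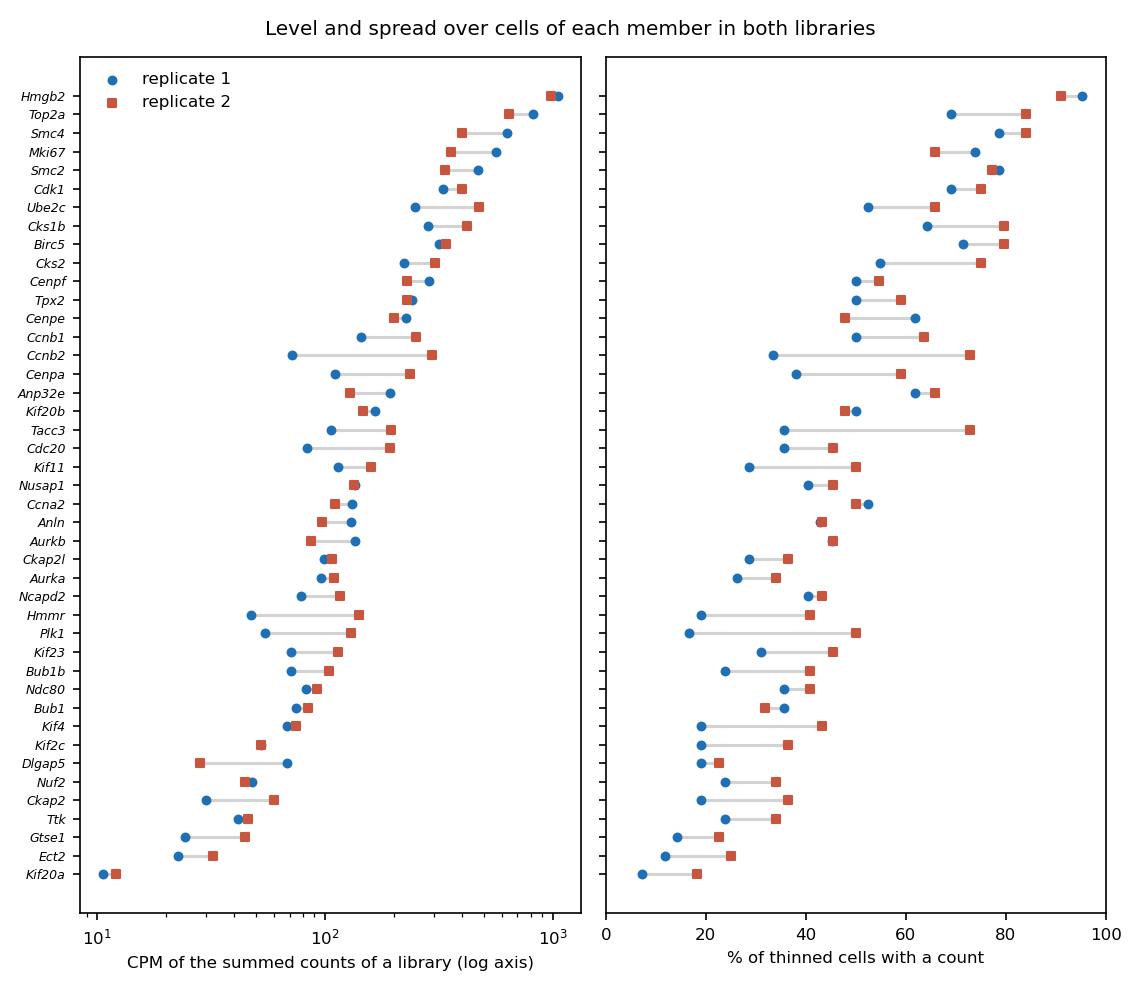
Level of each member in CPM of the summed counts of a library (left, log axis) and the percentage of its thinned cells with a count (right), with circles for replicate 1 and squares for replicate 2. Members run from *Kif20a* at the bottom to *Hmgb2* at the top by mean CPM. *Ccnb2* shows the widest gap on the log axis between the libraries.

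The members varied together from cell to cell in both libraries. Over the 903 pairs of members, Spearman's rho of thinned counts had a median of 0.22 in replicate 1 (42 cells) and 0.37 in replicate 2 (44 cells). It was above 0 in 793 pairs (87.8%) and 880 pairs (97.5%). It reached 0.5 in 28 pairs of replicate 1 and 201 pairs of replicate 2. Thinned cells share their library and the depth they were thinned to, and low counts pull rho towards 0. Depth before thinning still went with the members. Their mean log2(thinned count + 1) had a rho with it of 0.55 in replicate 1 and 0.36 in replicate 2. In cells of at least 100000 counts the median over pairs was 0.16 and 0.39. The part of depth was not tested. The pair with the highest smaller rho was *Top2a* and *Mki67*, with 0.60 and 0.74, followed by *Cenpe* and *Kif20b*, with 0.62 and 0.60.

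Each member was then set against the mean log2(thinned count + 1) of the other 42. The median rho was 0.45 in replicate 1 and 0.63 in replicate 2, and 17 and 34 members reached 0.5. The members with the highest mean rho were *Mki67* (0.74 and 0.69), *Nusap1* (0.63 and 0.78), *Top2a* (0.59 and 0.79) and *Ccnb1* (0.67 and 0.69). *Nusap1*, whose product bundles spindle microtubules (chromosome 2, 119618298 to 119651244), had a count in 11 of 16 on cells and 6 of 26 off cells of replicate 1, and in 18 of 23 and 2 of 21 of replicate 2. *Mki67* was more widespread, with 16 of 16 on and 15 of 26 off cells in replicate 1 and 22 of 23 and 7 of 21 in replicate 2. Each member adds to the number that defines on cells, so the splits of members over on and off cells are partly set by that rule and are a description.

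The members with the lowest mean rho were *Ect2* (0.21 and 0.14), the guanine nucleotide exchange factor of cytokinesis, *Anp32e* (0.28 and 0.12), *Gtse1* (0.15 and 0.39) and *Kif20a* (0.066 and 0.49). *Ect2*, *Gtse1* and *Kif20a* were also the 3 members of the lowest level, with a count in at most 16 of 86 thinned cells each. *Anp32e* was not rare. It had a count in 55 of 86 thinned cells, and its share of on and off cells in replicate 2 was 15 of 23 and 14 of 21. Over 20 draws of the thinning its rho with the rest ranged from 0.31 to 0.48 in replicate 1 and from 0.052 to 0.42 in replicate 2, against 0.68 to 0.79 and 0.65 to 0.77 for *Mki67*. *Ccnb1* ranked lower over these draws, with means of 0.52 and 0.72, and *Kif20b* (0.64 and 0.72) took its place among the first 4. *Anp32e* left the lowest 4 by a narrow margin, with means of 0.38 and 0.21, and the spindle gene *Ckap2* (0.095 and 0.49) took its place. The value of *Anp32e* in replicate 1 given first, 0.28, thus lies below all 20 draws.

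Each role had a positive rho with the rest. The mean level of the members of 1 role had a rho with that of all other members of 0.74 and 0.83 for the cyclin group, 0.76 and 0.84 for the kinases, 0.81 and 0.89 for the kinetochore and passenger genes, 0.81 and 0.89 for motors and spindle, and 0.77 and 0.85 for chromosome structure. For the roles with 2 members it was 0.54 and 0.83 (anaphase-promoting complex), 0.44 and 0.67 (cytokinesis) and 0.61 and 0.64 (chromatin). In cytokinesis and chromatin the 2 members differed. Set against the other 42 members, *Anln* was at 0.48 and 0.68 and *Ect2* at 0.21 and 0.14. *Hmgb2* was at 0.63 and 0.63 and *Anp32e* at 0.28 and 0.12.

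**Figure D3:**
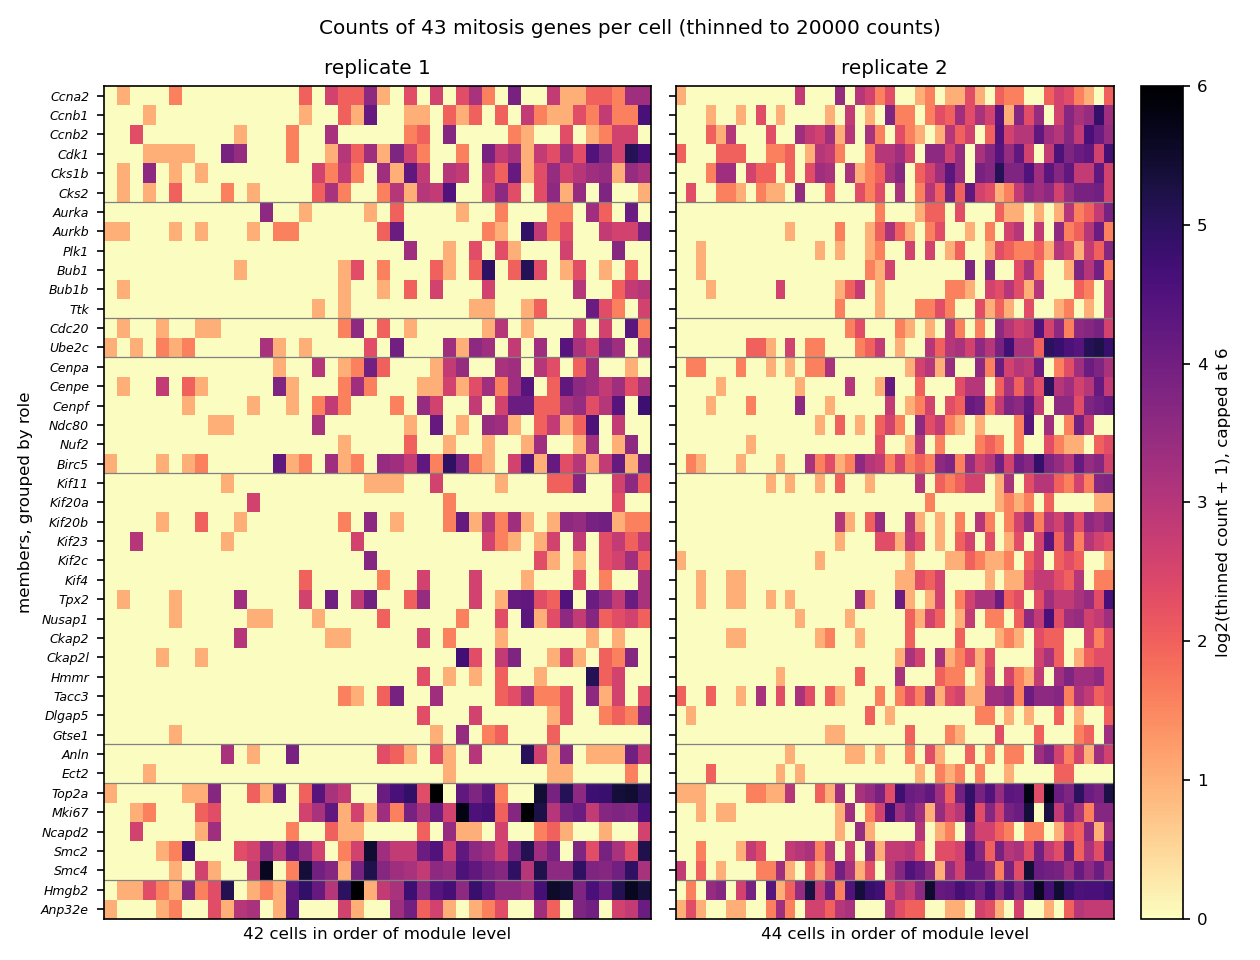
Thinned counts of the 43 members (rows, grouped by role with grey lines between groups) in each cell (columns, in increasing order of the module level), as log2(thinned count + 1) with 6 as the top of the scale. Dark cells gather to the right in nearly every row. *Hmgb2* and *Smc2* stay dark far to the left, and *Ect2* and *Kif20a* are sparse throughout.

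The same measure was taken for all 3597 genes with a count in at least 25% of the thinned cells of each library, 31 of which were members. The median rho with the module level was 0.49 and 0.66 for these 31 members and 0.11 and 0.027 for all genes. The Spearman correlation was positive in both libraries for 31 of 31 members and for 43.9% of all genes, and at least 0.4 in both for 21 members and 43 genes (1.20%). A list of other mitosis genes gave 0.36 and 0.45 over 27 genes, all positive in both libraries. S phase genes, which act in DNA replication, gave 0.18 and 0.14 over 34 genes.

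The 10 other genes most like the module were *Casc5* (0.62 and 0.62), *Prc1* (0.61 and 0.69), *Tubb5* (0.61 and 0.67), *Arl6ip1* (0.58 and 0.67), *Tuba1b* (0.56 and 0.72), *Lsm3* (0.53 and 0.59), *Aspm* (0.50 and 0.57), *Racgap1* (0.49 and 0.59), *Bub3* (0.61 and 0.48) and *Kif15* (0.48 and 0.45). Of these 10, 6 stood on the list of other mitosis genes, among them the kinetochore scaffold *Casc5* and the midzone bundler *Prc1*. *Tubb5* and *Tuba1b* encode tubulins and had a count in nearly every cell.

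The level of the S phase genes had a rho of 0.36 and 0.29 with the module level. Divided at the library median of the S phase level, 10 of the 16 on cells of replicate 1 and 16 of the 23 of replicate 2 were S phase high. Of the off cells, 11 of 26 and 6 of 21 were. Both libraries held on cells with a low S phase level and off cells with a high one. The division at the median fixes how many cells are S phase high, so such cells occur in part by construction. These counts are a description.

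The start sites of the members were searched for letter strings of the CHR and CCAAT elements, to show what the members share beyond their counts. Windows from 250 bases before to 50 bases after the annotated start came from RefSeq (GRCm38.p6), where 37 of 43 members had one. *Smc4*, *Tpx2*, *Dlgap5*, *Ccna2*, *Aurkb* and *Kif20a* had none. Of the members with the highest rho, 5 with CHR letters inside the stretch from 180 bases before to 30 bases after the start are shown 5′ to 3′ on the strand of the gene. Capitals mark the CHR letters, which are TTTGAA or, as a further form, TTTAAA, and the CCAAT letters, on either strand, so that TTCAAA and, for the box, ATTGG are marked too. Overlapping matches each counted.

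Mki67, chr7:135716350-135716559, minus strand: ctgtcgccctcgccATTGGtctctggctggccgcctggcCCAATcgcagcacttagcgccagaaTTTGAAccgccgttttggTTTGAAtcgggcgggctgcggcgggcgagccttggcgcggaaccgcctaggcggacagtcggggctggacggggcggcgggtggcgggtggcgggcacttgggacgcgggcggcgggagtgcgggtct

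Top2a, chr11:99024160-99024369, minus strand: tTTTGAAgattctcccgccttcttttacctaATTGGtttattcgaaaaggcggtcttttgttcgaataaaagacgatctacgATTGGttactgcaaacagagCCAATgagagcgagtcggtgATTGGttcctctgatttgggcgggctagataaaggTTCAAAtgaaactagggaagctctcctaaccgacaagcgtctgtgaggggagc

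Ccnb1, chr13:100786457-100786666, minus strand: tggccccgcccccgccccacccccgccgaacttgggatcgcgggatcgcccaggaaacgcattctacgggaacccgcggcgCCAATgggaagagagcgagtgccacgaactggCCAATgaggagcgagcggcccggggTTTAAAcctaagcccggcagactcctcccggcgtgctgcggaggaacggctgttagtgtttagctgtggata

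Cenpf, chr1:189688057-189688266, minus strand: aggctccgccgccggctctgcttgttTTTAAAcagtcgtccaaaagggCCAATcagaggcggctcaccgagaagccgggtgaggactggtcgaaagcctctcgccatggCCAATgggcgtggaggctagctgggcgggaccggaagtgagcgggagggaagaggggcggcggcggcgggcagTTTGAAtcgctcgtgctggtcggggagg

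Kif20b, chr19:34922178-34922387, plus strand: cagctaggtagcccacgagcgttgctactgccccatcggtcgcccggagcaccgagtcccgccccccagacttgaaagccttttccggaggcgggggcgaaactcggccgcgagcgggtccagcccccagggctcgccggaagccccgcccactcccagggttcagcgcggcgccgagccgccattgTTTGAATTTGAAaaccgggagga

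In *Top2a*, *Ccnb1* and *Cenpf* CCAAT letters lay upstream of CHR letters close to the start. *Top2a* and *Cenpf* also held CHR letters further upstream. In *Kif20b* 2 copies of TTTGAA stood in tandem just after the start with no CCAAT in the stretch, and in *Mki67* both CHR strings lay further upstream than the string nearest the start in each of the other 4 genes. CHR letters were found in the full window of 32 of 37 members (86.5%), against 30.6% of the 27025 genes with a window and 22.1% of the 8190 genes tested in these cells that had one. TTTGAA from 50 bases before the start onwards was found in 23 members (62.2%), against 5.72% of all genes. CCAAT letters were found in 29 members (78.4%) against 41.1%, at least 2 of them in 22 (59.5%) against 13.3%, and CHR with CCAAT letters in 27 (73.0%) against 12.2%.

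Other lists differed in the strings they held. Of the S phase genes with a window, 28.6% held CHR letters and 71.4% held CCAAT letters. The E2F strings, searched as TTTCCCGC, as TTTGGCGC and as TTTCGCGC on both strands, were found in 40% of the S phase genes, in 12.2% of the other mitosis genes and in 2 of 37 members (5.41%), against 2.12% of all genes and 4.43% of the genes tested in these cells. The members' share of E2F strings was thus near that of the genes tested. Of the other mitosis genes with a window, 70.7% held CHR letters. The 5 members without CHR letters were *Bub1*, *Cks2*, *Nuf2*, *Nusap1* and *Tacc3*, and their median rho with the rest was 0.50 and 0.54 against 0.44 and 0.64 for the 32 with them. A match is a string of letters and no evidence of binding.

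**Figure D4:**
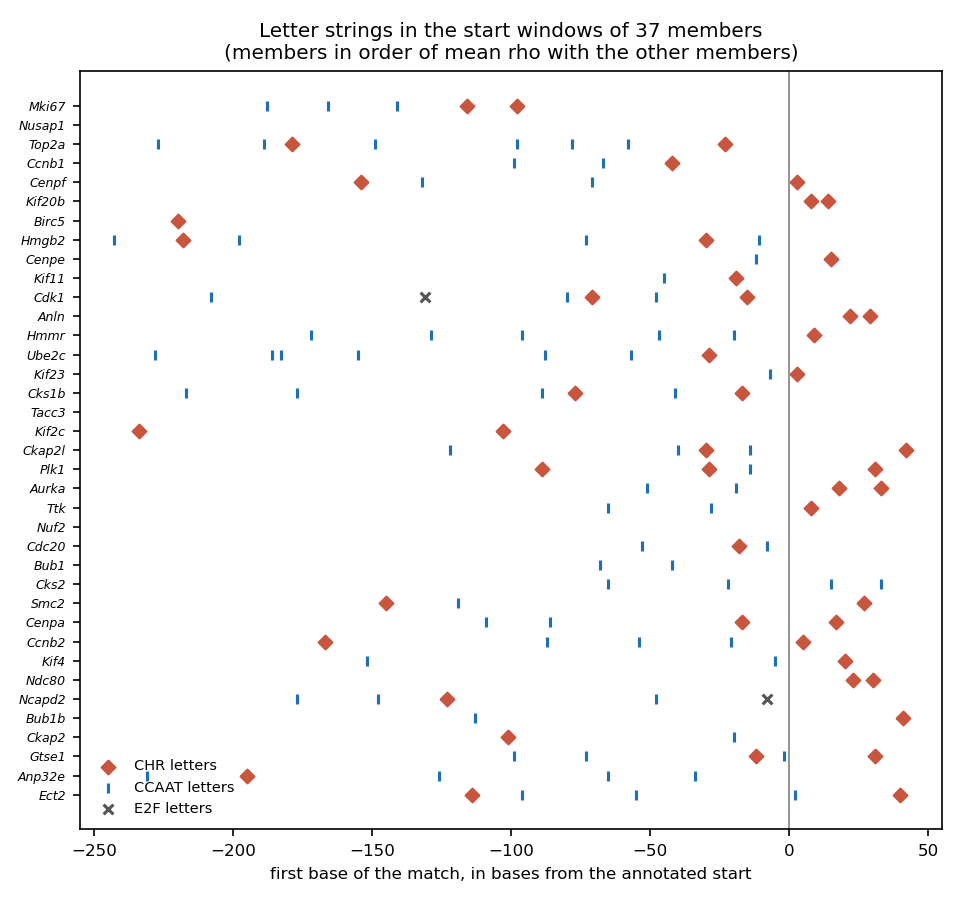
Positions of CHR, CCAAT and E2F letter strings (symbols) relative to the annotated start (x axis, in bases, grey line at the start) for 37 members, in order of mean rho with the other members from *Ect2* (bottom) to *Mki67* (top). CHR strings crowd around the start, with 64.8% of the 54 matches in all windows of members from 50 bases before it onwards, against 25.1% of matches over all genes. Members with more than 1 window are drawn with the first.

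To relate the module to the hematopoietic program, the cells of each library were divided at the library's median CPM of *Runx1*, the transcription factor required for hemogenic endothelium to produce blood cells. The median was 52.2 CPM in replicate 1, with 21 Runx1-high and 22 Runx1-low cells, and 10.03 CPM in replicate 2, with 22 of each. Runx1-high cells of replicate 2 began at 11.2 CPM, below the highest Runx1-low cell of replicate 1. Of the thinned cells, 66.7% in replicate 1 and 43.2% in replicate 2 had a *Runx1* count. The part of the low cut of replicate 2 in the comparison was not tested. The module was on in 12 of 21 Runx1-high cells (57.1%, exact 95% interval 34.0 to 78.2%) and in 4 of 21 Runx1-low cells (19.0%, 5.45 to 41.9%) of replicate 1. In replicate 2 it was on in 13 of 22 (59.1%, 36.4 to 79.3%) and 10 of 22 (45.5%, 24.4 to 67.8%). The direction was the same in both libraries, and in both the intervals overlap.

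Runx1-high cells were also deeper. Their median depth was 260240 counts in replicate 1, where that of Runx1-low cells was 95376, and 271734 in replicate 2, where it was 213444. Among cells of at least 100000 counts, the module was on in 11 of 15 Runx1-high and 3 of 11 Runx1-low cells of replicate 1, and in 13 of 20 and 9 of 20 of replicate 2. The Spearman correlation of the module level with the thinned *Runx1* count was 0.24 and 0.16. It depended on the draw, with a mean over 20 draws of 0.30 (0.23 to 0.43) in replicate 1 and 0.093 (-0.0023 to 0.21) in replicate 2.

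Counts were summed per library and side into 4 sums and tested with edgeR's quasi-likelihood test with the library as a term. None of the 43 members passed an adjusted p of 0.05, where 166 of 10629 genes did (1.56%), and 7 members (16.3%) had an unadjusted p under 0.05, against 8.66% of all genes. DESeq2 also called 0 members, with 7 (16.3%) at an unadjusted p under 0.05, against 11.2% of all genes. The median log2 fold change of the members was 0.49 and that of all genes 0.07. A positive value was found for 37 of 43 members (86.0%), against 52.7% of all genes. CPM was higher on the Runx1-high side of both libraries for 24 members (55.8%) and lower for 5, against 29.1% and 26.0% of all genes. The shift was larger in replicate 1, with a median of 0.81 from that library alone and 0.22 from replicate 2. The 55 other mitosis genes had a median of 0.60 and the 47 S phase genes of 0.11, with 0 called by edgeR in either list and 8 and 1 genes at an unadjusted p under 0.05. DESeq2 also called 0 in both, with 7 and 2 at that level. The distance between members and S phase genes depended on the setting. With sums of thinned cells the medians were 0.39 for the members, 0.49 for the other mitosis genes and 0.43 for the S phase genes. With the division made on thinned counts they were 0.48, 0.57 and 0.29.

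*Cdc20* had the lowest adjusted p of the members. It was at 124 CPM in Runx1-high and 9.44 CPM in Runx1-low cells of replicate 1, and at 195 and 182 CPM in replicate 2. The sides were far apart in replicate 1 and close in replicate 2, and the log2 fold change was 1.81 (SE 0.58, edgeR adjusted p = 0.0914, 0.0914 to 1.00 over the alternatives). *Cdk1* was the more even case, at 399 and 209 CPM in replicate 1 and 484 and 255 CPM in replicate 2, with a log2 fold change of 0.92 (SE 0.35, edgeR adjusted p = 0.231). Apart from *Cdc20*, the greatest positive values were those of *Gtse1* (2.49, SE 1.31), *Ect2* (1.66, SE 1.41) and *Bub1b* (1.62, SE 0.74). *Bub1b* was at 105 and 10.1 CPM in replicate 1 but at 103 and 103 CPM in replicate 2. The lowest values were those of *Ccnb2* (-0.80, SE 0.43), *Kif20a* (-0.72, SE 2.12), *Aurkb* (-0.48, SE 0.51) and *Birc5* (-0.42, SE 0.35). *Ccnb2* was at 46.6 and 120.2 CPM in replicate 1 and at 272 and 318 CPM in replicate 2, lower on the Runx1-high side in both. None of these differences passed the test. By role, the median ranged from 0.19 for the kinetochore and passenger genes to 0.98 for the 2 genes of the anaphase-promoting complex.

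Mesenchymal genes moved with this division. The summed level of 6 mesenchymal genes was 48.4 CPM in Runx1-high and 2268 CPM in Runx1-low cells of replicate 1, and 23.4 and 788 CPM in replicate 2. Without the 3 cells high in these genes the median of the members was 0.46 and 0 members were called by edgeR, with 9 (20.9%) at an unadjusted p under 0.05, against 8.03% of all genes. The summed level of 6 macrophage genes was 95.5 CPM in Runx1-high and 303 CPM in Runx1-low cells of replicate 1, and 209 and 199 CPM in replicate 2, with *Cx3cr1* and *Adgre1* at 0. Of these genes *Mrc1*, the mannose receptor, was lower in Runx1-high cells, at 34.8 and 299 CPM in replicate 1 and 143 and 186 CPM in replicate 2 (edgeR adjusted p = 0.0349). The Fc receptor gene *Fcgr3* was at 29.3 and 0.33 CPM and at 61.8 and 8.49 CPM and did not pass the test (edgeR adjusted p = 0.250). These calls depended on the setting. DESeq2 called 1 of 4 macrophage genes higher in Runx1-high cells and 0 lower. With edgeR 0 were called without the library as a term, with sums of thinned cells and in cells of at least 100000 counts. Summed levels over all sides of both divisions ranged from 92.9 to 312 CPM for the macrophage genes, from 4.41 to 33.1 CPM for 6 erythroid genes and from 0 to 27.9 CPM for 6 visceral endoderm genes. Their part in the result was not tested. Whether replicates came from separate litters is not given. The p-values measure only how far the difference between sides varied between these 2 libraries.

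*Gja5*, which encodes connexin 40 of arterial endothelium, was used in the same way, on the same cells, so that this comparison and that of *Runx1* are not independent. Its median was 10.01 CPM in replicate 1 and 147 CPM in replicate 2. Gja5-high cells of replicate 1 began at 10.6 CPM, whereas Gja5-low cells of replicate 2 reached 146 CPM. A cell on the high side of replicate 1 could thus be lower than one on the low side of replicate 2. Of the thinned cells, 40.5% in replicate 1 and 79.5% in replicate 2 had a *Gja5* count. The part of the low cut of replicate 1 in the comparison was not tested. The module was on in 8 of 21 Gja5-high and 8 of 21 Gja5-low cells of replicate 1 (38.1%, 18.1 to 61.6%, on both sides), and in 12 of 22 (54.5%, 32.2 to 75.6%) and 11 of 22 (50%, 28.2 to 71.8%) of replicate 2. The sides were similar in depth, with medians of 161402 and 140017 counts in replicate 1 and 230499 and 246822 in replicate 2. The Spearman correlation of the module level with *Gja5* was -0.19 and -0.067, with means over 20 draws of -0.055 and -0.0084. The summed level of the mesenchymal genes was 974 CPM in Gja5-high and 698 CPM in Gja5-low cells of replicate 1, and 651 and 21.2 CPM in replicate 2, and their part was not tested.

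No member passed the edgeR test between Gja5-high and Gja5-low cells, where 94 of 10653 genes did (0.882%). At an unadjusted p under 0.05 there were 2 members (4.65%), *Aurkb* and *Plk1*, against 7.72% of all genes, and DESeq2 likewise called 0 members with 2 at that level, against 9.28% of all genes. The median log2 fold change was 0.05 for the members and -0.0031 for all genes. CPM was higher on the Gja5-high side of both libraries for 13 members (30.2%), against 26.7% of all genes, and lower in both for 8 (18.6%), against 27.4%. The other mitosis genes had a median of 0.01 and the S phase genes of -0.07, with 0 called in either list by edgeR (3 and 2 at an unadjusted p under 0.05) or by DESeq2 (4 and 2). *Aurkb* was at 216 and 55.5 CPM in replicate 1 and at 107 and 65.0 CPM in replicate 2, with a log2 fold change of 1.34 (SE 0.47, edgeR adjusted p = 0.278). *Plk1* was at 13.8 and 98.5 CPM in replicate 1 but at 128 and 129 CPM in replicate 2, with a value of -1.39 (SE 0.62, edgeR adjusted p = 0.542). The other named members had SEs from 0.43 to 0.86. They were *Bub1* (0.97), *Nuf2* (0.96) and *Ttk* (0.82) on the positive side and *Ckap2* (-1.39), *Bub1b* (-0.59) and *Nusap1* (-0.46) on the negative side.

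**Figure D5:**
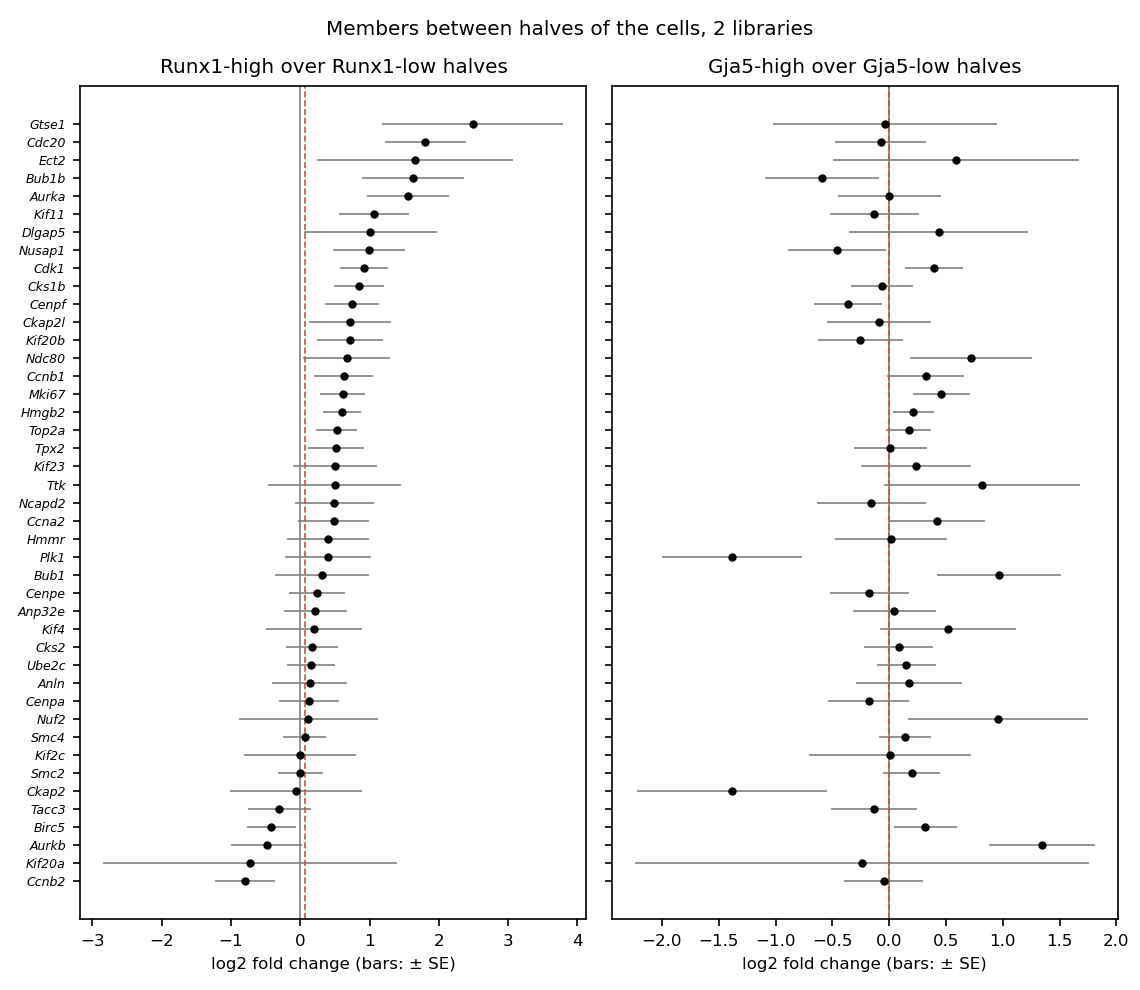
Log2 fold change of each member from edgeR (x axes, bars ± SE) between Runx1-high and Runx1-low cells (left) and between Gja5-high and Gja5-low cells (right), over sums of 2 libraries. Members run in order of the *Runx1* value, and the dashed line gives the median of all genes tested, 0.07 and -0.0031. On the left, 37 of 43 points (86.0%) are above 0, against 52.7% of all genes tested. On the right 26 (60.5%) are, against 49.9%.

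With both divisions combined, the module was on in 7 of 10 cells of replicate 1 that were high in both genes, in 5 of 11 high in *Runx1* alone, in 1 of 11 high in *Gja5* alone and in 3 of 10 low in both. In replicate 2 the counts were 5 of 9, 8 of 13, 7 of 13 and 3 of 9. The order of these 4 groups differed between the libraries, and each has at most 13 cells. The sides follow the medians of each library, so high and low stand for different levels in the libraries. In replicate 1 the cells high in *Gja5* alone were also the shallowest, with a median of 78277 counts.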

How the data were processed

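Transcripts of 87 E10.0 yolk sac PK44 cells in 2 libraries were measured by modified STRT-seq. According to the submitters' processing notes, reads were aligned to mm10 with HISAT2 2.1.0 and counted with HTSeq. Per the methods, the authors removed duplicates by UMI and low-quality cells by quality control, and the deposited values are counts per gene and cell without normalization. The methods retain cells with more than 2000 genes, but the lowest number of genes in a deposited cell was 1941, in replicate 1. The deposited cell barcode tables hold no measurement, and the table of barcodes in use served to count shared barcodes. Depth ranged from 13218 to 956593 counts per cell and limits what can be detected in a cell.

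All deposited cells were used. Doublets were not called, since single cells had been picked by hand. Cells were thinned without replacement to 20000 counts (seed 11). Shares have exact (Clopper-Pearson) 95% intervals, and a share of 0 is given the limit of 3 cells of the total. Counts summed per library and side were tested with the quasi-likelihood test of edgeR 4.0.16 (R 4.3.3) after filterByExpr and TMM scaling. P-values were adjusted by Benjamini-Hochberg over all genes tested, at a threshold of 0.05. The library was a term of the model, since both sides come from the same library. Deviations of the sums of a library from their side means correlated at 0.177 (*Runx1*) and 0.184 (*Gja5*) across genes, which are not replicates. DESeq2 1.42.0, other size factors, no filter, other thinning, other divisions, deep cells and each library left out were alternatives. The tests were tried on simulated data. *Runx1* and *Gja5* define the sides and are no results. Coordinates are those of GENCODE M21 (GRCm38), and start windows those of RefSeq GRCm38.p6. Python 3.11.15, numpy 2.4.6, pandas 2.3.3, scipy 1.17.1 and matplotlib 3.10.9 were used.

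Values were given for the 10 members of highest mean CPM, the 4 of highest and the 4 of lowest mean rho with the rest, the 4 with the largest change in each direction, and the 10 most alike other genes in at least 25% of thinned cells. Further members were named after their values were seen. The members and lists were chosen with earlier results of these data known, and the cells of at least 100000 counts and the further draws were added after seeing the data.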

Additional observations from a re-analysis of the deposited data

How the results depend on the processing

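Members called stayed at 0 in both comparisons under every alternative tried, and the median pairwise rho and the median change with *Runx1* kept their direction. The share of cells with the module on depended on its definition. In replicate 1 it was 55.6% at 50000 counts, 74.4% without thinning, 57.1% with 15 members required, 16.7% with 29 and 23.8% with 2 counts required for a member. In cells of at least 100000 counts (deep cells) it was 53.8% on the same draw and 61.5% on another. In replicate 2 it was 70.5%, 95.5% and, with 15 members, 68.2%. The Spearman correlation with *Runx1* in replicate 1 was 0.34 at 50000 counts, 0.32 without thinning, 0.41 in another draw, 0.36 in deep cells, 0.52 in another draw of these and 0.30 over 20 draws. In replicate 2 it was -0.052 at 10000 counts, 0.10 without thinning, 0.036 in another draw of the deep cells and 0.093 over 20 draws. The Spearman correlation with *Gja5* in replicate 1 was 0.023 at 50000 counts, 0.031 without thinning, -0.021 in another draw, 0.037 in deep cells, -0.057 in another draw of these, -0.068 in another draw without mesenchymal cells and -0.055 over 20 draws. In replicate 2 it was 0.038 at 10000 counts, 0.019 in another draw, 0.020 in another draw without mesenchymal cells and -0.17 in deep cells. The median change of the members with *Gja5* was -0.046 with thinned sums, -0.24 between the outer parts of a 3-way division, -0.15 with the division made on thinned counts, 0.11 without mesenchymal cells and 0.076 to 0.13 with 1 library left out, where no test is possible.

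Among named members, the *Runx1* value ranged from -0.0080 (without replicate 1) to 3.33 for *Bub1b* with 1 library left out, and turned to 0.34 for *Kif20a* in the 3-way division and 0.050 for *Aurkb* with thinned sums. The *Gja5* value turned to -0.11 with thinned sums for *Ttk*. With 1 library left out it ranged from -0.078 (without replicate 1) to 1.69 for *Ttk* and from -1.20 to 0.27 (without replicate 1) for *Nusap1*. Without the library block, 1 gene was called with *Runx1* in place of 166 and 0 with *Gja5* in place of 94, where 2 (4.65%) and 1 (2.33%) members had an unadjusted edgeR p under 0.05, against 5.53% and 4.06% of all genes. The higher share of members than of all genes at that level with *Runx1* was thus not seen without the block. With thinned sums it was 4 of 40 members (10%), near the 9.65% of all genes. In the 3-way division it was 3 of 43 (6.98%), against 8.07%. The other settings with both libraries gave 16.3 to 20.9% of members, against 7.04 to 11.2% of all genes. The number of genes called with *Runx1* was 295 with DESeq2, 91 with thinned sums and 52 in deep cells. For *Gja5* it was 172 with DESeq2, 160 without a filter, 46 with thinned sums, 166 in the 3-way division and 43 with the division made on thinned counts. The causes were not tested. Deep cells, their other draws, that without mesenchymal cells and the 20 draws were chosen after seeing the data. Of all values recomputed, 6 reversed and 44 moved by more than 1.5 times (counts), the spread between libraries or the interval of a share. The other 260 did not, but for single members only direction and side of the threshold were compared, and their size could change, as for *Cdc20* with *Runx1*, at 0.092 without replicate 1 and 3.66 without replicate 2. With 2 libraries and sparse counts of low members such as *Kif20a*, small changes cannot be detected.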

Other observations

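Endothelial and hematopoietic genes were also summed in on and off cells, as a description. The summed level of 15 endothelial features was 1365 CPM in on cells and 3219 CPM in off cells of replicate 1, and 3032 and 3592 CPM in replicate 2. The summed level of 8 hematopoietic features was 1537 and 1052 CPM, and 692 and 606 CPM. Both libraries went the same way, by different amounts, and no test was made. Across cells, 1 of 12 endothelial features in at least 25% of thinned cells of each library had a positive rho with the module level in both. That is 8.33%, against 43.9% of all genes. Of the hematopoietic features 2 of 4 (50%) did, near the share of all genes, with a median rho of 0.067 and 0.088.

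*Gfi1*, a transcriptional repressor of the endothelial program downstream of *Runx1* that was chosen after its values were seen, had a thinned count in 6 of 16 on cells and 0 of 26 off cells of replicate 1. In replicate 2 it had one in 5 of 23 on and 2 of 21 off cells. At 0 of 26 cells, a share of up to 11.5% of cells with a count is allowed. Other genes of the hematopoietic side did not keep 1 direction. The mean thinned counts of *Runx1*, *Kit* and *Spi1* in on and off cells of replicate 1 were 5.75 and 3.54, 3.81 and 2.46, and 2.56 and 1.31. In replicate 2 they were lower in on cells, at 2.52 and 2.81, 0.91 and 1.67, and 0.87 and 1.19. *Runx1* had a count in 12 of 23 on and 7 of 21 off cells there.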
